A study of Mus musculus with 4 samples.

Results

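The replication-dependent histone genes lie in clusters on a few chromosomes and encode the core histones H2A, H2B, H3 and H4 and the linker histone H1. All genes whose name on the array starts with Hist1h, Hist2h, Hist3h or Hist4h were taken: 49 genes with 54 probes, of 31659 gene names and 39429 probes on the array. They comprise 6 H1, 14 H2A, 12 H2B, 8 H3 and 9 H4 genes, and they are given by the names in the array files (Hist1h1b is now H1f5, for example).

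Core histones wrap DNA into nucleosomes, and H1 binds the linker DNA between them. Most clustered histone genes are transcribed mainly in S phase, when newly copied DNA has to be packaged. Their mRNAs have no introns and typically end in a conserved stem-loop in place of a poly(A) tail. Stem-loop binding protein (SLBP) holds that stem-loop through processing, export and translation, and the mRNAs are degraded when DNA synthesis stops. Histone variants such as H3.3 and H2A.Z are made outside S phase too, from polyadenylated mRNAs.

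RNA was measured in preproB cells, an early stage on the path to B cells, sorted from bone marrow as lineage-negative cells bearing B220 and CD43 and lacking BP1 and CD24. All mice were C57BL/6, carried loxP sites on both copies of the +37 kb enhancer of Cebpa, which encodes the transcription factor C/EBPα, and had been given 3 subcutaneous doses of pIpC (300 mg, as the labels state it) every other day, 5 weeks before sorting. pIpC is a double-stranded RNA that induces interferon. The 2 control samples had no Cre, and the 2 EnhDel samples also carried Mx1-Cre, whose promoter answers to interferon in many cell types, so the effects of the deletion and of Cre itself cannot be told apart. The labels call control replicate 1 female and 26 weeks old, and the remaining mice male and 24 weeks old. The comparison addresses what loss of the enhancer does to gene expression in these cells.

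Some measurements bear on the labels. Cebpa intensity was 1294 and 845 in the controls against 135 and 286 in EnhDel. Xist, the RNA of the inactive X chromosome, was not well above background on control replicate 1 despite its female label, where the Y-linked Eif2s3y was at 5006. On EnhDel replicate 2, labelled male, the Xist probes read 1547 and 596, and Eif2s3y was at 2629 against 5006 to 6234 on the other arrays. The Y-linked Ddx3y, Kdm5d and Uty were also well above background there, with Ddx3y at 1557 against 3166 to 3914 on the other arrays. Control replicate 1 thus goes against its labelled sex, and EnhDel replicate 2 read both Xist and Y-linked RNA. Whether labels were exchanged or a sample held cells of more than 1 mouse was not tested, and it would change what the values of these arrays stand for. The histone median was -0.83 with all arrays, -0.87 without control replicate 1 and -0.36 without EnhDel replicate 2. Of all probes, 59.6% to 64.9% per array passed as well above background, and none was saturated. The transcripts of the gate antigens fitted the sort in part: Enpep (BP1) was not well above background on any array, while Cd24a read 1907 to 5802. The SD of log2 differences between the EnhDel arrays over all genes was 0.611, against 0.333 between the control arrays. The limma fit takes 1 variance per gene for both groups, drawn toward that of all genes, so it does not model this inequality. The p-values here rest on these few samples only.

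Most clustered histone genes had lower signal in EnhDel cells, by far the most on EnhDel replicate 2. Of the 49 genes, 47 could be tested, and all 47 were well above background on all 4 arrays. Hist1h1d was well above background on no array and Hist1h2bq on 1. The median log2 difference (EnhDel minus control) of the 47 was -0.83, with quartiles of -1.20 and 0.07, beside a median of 0.07 over all 19391 genes tested. A difference below 0 was found for 34 of the 47 and for 40.2% of all genes. In 32 of the 47 the EnhDel values were both under the lower control value, against 15.5% of all genes, and in 5 both lay above, against 28.6%.

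None of the 47 passed an adjusted p of 0.05 in limma, and neither did any other gene (0% of those tested). Their adjusted p ran from 0.241 to 0.919. At an unadjusted p under 0.05, 8 histone genes were lower and 3 higher, beside 3.96% and 7.25% of all genes. A difference of at least 2-fold was found for 17 genes, all lower in EnhDel, where 2.98% of all genes were 2-fold lower. It came with an unadjusted p under 0.05 in 4 of them, against 1.91% of all genes. None was 2-fold higher, where 3.35% of all genes were, 2.43% with an unadjusted p under 0.05.

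The pair of EnhDel arrays did not carry this difference alike. On EnhDel replicate 1 the median histone difference from the control mean was -0.36, and on EnhDel replicate 2 it was -1.24. EnhDel replicate 2 read below EnhDel replicate 1 for 39 of the 47 genes, against 51.3% of all genes. EnhDel replicate 1 on its own read below both control arrays for 35 of the 47, against 28.3% of all genes. Its medians were -0.34 for H1, -0.39 for H2A, -0.10 for H2B, -0.59 for H3 and -0.52 for H4. Without EnhDel replicate 2, 1 histone gene was at least 2-fold lower with an unadjusted p under 0.05, a share near the 1.71% of all genes under that setting. The control arrays lay close together, with a median histone difference of 0.08 between them, and control replicate 2 read above control replicate 1 for 32 of the 47 genes, against 42.4% of all genes. RNA was taken from a mixed pool of cells, where fewer cells in S phase and less histone mRNA per cell cannot be told apart.

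**Figure D1:**
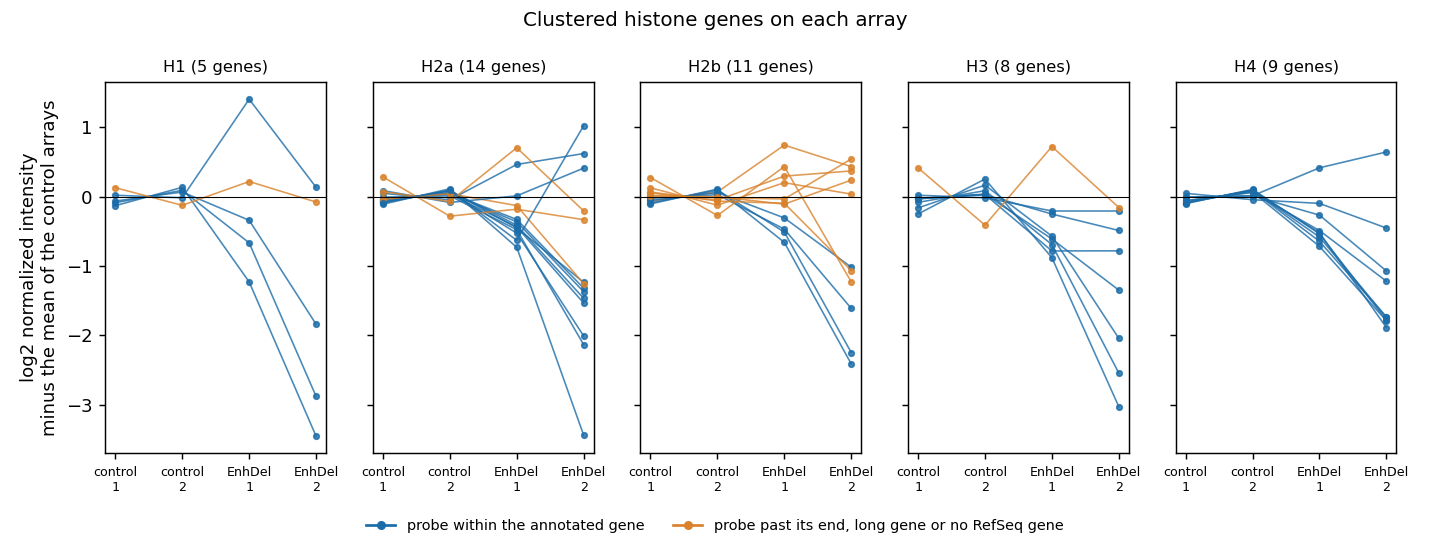
Log2 normalized intensity of each of the 47 tested histone genes on the 4 arrays, minus the mean of its control values, in a panel per histone type; a line joins the values of a gene and blue marks a probe within the annotated gene, orange any other. Most blue lines dip on EnhDel replicate 1 and further on EnhDel replicate 2, where the overall median is -1.24, and the orange lines stay nearer 0.

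The sequences the probes read are shown first because histone genes are near-copies of each other. The 60-base probes below, read 5′ to 3′, belong to 5 H2A genes and lie in build mm9 at chr13:23626113-23626172, chr13:21845304-21845363, chr13:21878695-21878754, chr3:96049837-96049896 and chr3:96024171-96024230. Capitals mark bases that differ from the Hist1h2af probe. The Hist2h2ab probe was compared after a shift of 1 base, so its first base has no partner and stays in lower case.
Hist1h2af: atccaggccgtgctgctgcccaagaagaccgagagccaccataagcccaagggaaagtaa
Hist1h2ak: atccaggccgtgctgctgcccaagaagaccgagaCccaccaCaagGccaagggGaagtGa
Hist1h2an: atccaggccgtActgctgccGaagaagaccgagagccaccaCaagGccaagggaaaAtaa
Hist2h2aa2: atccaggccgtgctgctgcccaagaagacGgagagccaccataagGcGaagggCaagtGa
Hist2h2ab: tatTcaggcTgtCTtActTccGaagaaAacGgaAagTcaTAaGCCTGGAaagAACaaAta
The Hist1h2ak, Hist1h2an and Hist2h2aa2 probes each match the first in 55 of 60 bases, and Hist2h2ab matches it in 35 of 59. In all, 10 pairs of probes among 7 genes shared at least 50 of 60 bases. The array files list more than 1 RefSeq transcript for the probes of 13 tested genes. Their signals, and those of the near-identical probes, may add up RNA from several genes, so values of such genes are not independent of each other. The 13 genes had a median difference of -0.99 with 12 lower. The 34 genes whose probe lists 1 transcript had a median of -0.62 with 22 lower.

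The stem-loop was found in 6 of the 54 member probes. It was searched as the 16-base pattern that the capitals below mark, and the snippets are cut from the probe sequences in the array files.
Hist1h3a: ccaaaGGCTCTTTTCAGAGCCaca
Hist1h3g: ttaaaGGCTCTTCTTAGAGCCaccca
Hist1h3i: caaaaGGCTCTTTTCAGAGCCccctc
Hist1h4m: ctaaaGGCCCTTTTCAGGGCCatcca
Hist2h2bb: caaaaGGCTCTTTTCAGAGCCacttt
Hist2h2aa1: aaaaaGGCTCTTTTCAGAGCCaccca
In the Hist1h3a, Hist1h3g, Hist1h3i, Hist1h4m and Hist2h2bb probes, 3 to 6 bases follow the loop. These genes differed by -0.98, -1.96, -1.31, -0.28 and -1.54. In the Hist2h2aa1 probe 38 bases follow it, so that most of the probe lies downstream of the loop, and this gene differed by 0.54.

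The linker histone genes include the member furthest apart. Hist1h1b (H1f5), an H1 of dividing cells, read 12913 and 15511 in controls against 6030 and 1291 in EnhDel (normalized intensity). The groups did not overlap, and EnhDel replicate 2 was the lowest. It differed by -2.34 ± 0.77 on the log2 scale (SE, n = 2 per group). That is 5.07-fold lower, and the 95% interval runs from 1.21 to 21.2. The limma adjusted p was 0.408. Its probe lies on chromosome 13 from 21871923 to 21871982 in mm9. Without an mm9 annotation, coding and untranslated positions of the probes were not assigned.

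Other H1 genes lay on both sides of 0. Hist1h1a read 789 and 893 in controls against 528 and 114, a difference of -1.77 ± 0.76 (limma adjusted p = 0.487). Hist1h1e, a linker histone found in most cell types, read 10618 and 11620 against 8761 and 3102, a difference of -1.09 ± 0.53. In both genes the EnhDel arrays lay below the controls without overlap. Hist1h1c, another H1 of somatic cells, read 1207 and 1012 against 1284 and 1046, and the groups overlapped (0.07 ± 0.20). Hist1h1t, the H1 of the testis, read 60.5 and 59 against 158 and 65.5, a difference of 0.77 ± 0.45 that came mostly from EnhDel replicate 1.

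The H2A genes had a median difference of -0.83, with 10 of 14 lower and no overlap between the groups in 9 of those that were lower (15.5% of all genes). Hist2h2aa2 had the lowest p of the lower ones, at 158233 and 177927 in controls against 122728 and 71198. It differed by -0.84 ± 0.31, with an unadjusted p of 0.047 and a limma adjusted p of 0.440. Hist1h2an read 157798 and 172086 against 114343 and 40922, a difference of -1.27 ± 0.52. Hist1h2ag differed by -1.31 ± 0.58, Hist1h2ak by -0.99 ± 0.40, Hist1h2ah by -0.94 ± 0.39, Hist2h2ac by -0.87 ± 0.37 and Hist1h2af by -0.83 ± 0.37. All of these genes encode replication-dependent H2A, and each was lowest on EnhDel replicate 2. Their limma adjusted p lay between 0.440 and 0.498.

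Hist2h2aa1 went the other way. It read 9121 and 8548 in controls against 12161 and 13564, so both EnhDel arrays were higher, by 0.54 ± 0.16 (unadjusted p = 0.023, limma adjusted p = 0.377). Hist2h2aa1 and Hist2h2aa2 are a gene pair that encodes H2A, and the probe of the first is the one that reads on past the stem-loop. That probe is placed in mm9 at chr3:96049949-96050008, close to the Hist2h2aa2 probe at chr3:96049837-96049896. Whether the 2 probes read RNA of a single gene was not tested. Hist1h2ab, chosen after its values were seen, was furthest apart among H2A genes. It read 66843 and 78030 against 43480 and 6654, a difference of -2.09 ± 0.93 (limma adjusted p = 0.501).

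The H2B genes were the most divided type, with 6 of 11 lower (40.2% of all genes were), 5 higher and a median of -0.40. That median turned to 0.30 with normexp background correction and was -0.20 with 6 spots of extreme local background replaced before it. Hist2h2bb read 1867 and 2166 in controls against 1272 and 378, a difference of -1.54 ± 0.61. Hist1h2bm read 4576 and 4747 against 3364 and 1525 (-1.04 ± 0.41), and Hist1h2bb read 92.1 and 104 against 68.7 and 20.6 (-1.38 ± 0.61). In these 3 genes both EnhDel values lay below both controls, with limma adjusted p of 0.466, 0.466 and 0.495. Hist1h2ba, the testis H2B, differed by -0.66 ± 0.28, and Hist1h2bg by -0.58 ± 0.36. With normexp Hist1h2bb and Hist1h2bg lay above 0 instead, at 0.30 and 0.62. Hist3h2ba was higher on both EnhDel arrays, at 7222 and 5826 against 4132 and 4517. That difference was 0.59 ± 0.18 (unadjusted p = 0.029, limma adjusted p = 0.391). Hist1h2be differed by 0.33 ± 0.15 and Hist2h2be by 0.25 ± 0.24, of which Hist2h2be was high on EnhDel replicate 2 alone.

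Of the 8 H3 genes 7 were lower without overlap, against 15.5% of all genes, with a median of -0.88. With normexp that median was -0.38, and -0.69 with the 6 spots replaced. Hist1h3f had the lowest adjusted p of all clustered histone genes. It read 419 and 436 in controls against 248.1 and 248.3, so the EnhDel arrays were alike here, unlike for most members. The difference was -0.78 ± 0.15 (unadjusted p = 0.004, limma adjusted p = 0.241). Hist1h3a read 284 and 298 against 190 and 114, a difference of -0.98 ± 0.29 (unadjusted p = 0.024, limma adjusted p = 0.379). With normexp these genes differed by -0.20 and -0.22, and with the spots replaced by -0.67 and -0.71.

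Larger but less even differences stood in other H3 genes. Hist1h3g read 349 and 495 in controls against 226 and 50.9, a difference of -1.96 ± 0.76. Hist2h3c1 read 4141 and 4656 against 2716 and 752 (-1.62 ± 0.64), and Hist1h3i read 333 and 417 against 251 and 90.3 (-1.31 ± 0.53). Their limma adjusted p was 0.460, 0.466 and 0.469, and in each EnhDel replicate 2 carried most of the difference. Hist1h3d (-0.37 ± 0.17) and Hist1h3c (-0.21 ± 0.15) were closer to 0. The pseudogene Hist2h3c2-ps overlapped between groups (0.28 ± 0.43).

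The H4 genes had a median of -1.16, and 8 of 9 were lower without overlap, against 15.5% of all genes. Hist2h4 read 71129 and 77841 in controls against 45203 and 21513, a difference of -1.25 ± 0.39 (limma adjusted p = 0.391). Hist1h4k read 71980 and 81131 against 48839 and 22886 (-1.19 ± 0.40), and Hist1h4j read 3170 and 3585 against 2248 and 1010 (-1.16 ± 0.42). With Hist1h1b, these 3 genes make up the 4 that were at least 2-fold lower with an unadjusted p under 0.05. Hist1h4c differed by -0.86 ± 0.29, Hist4h4, the lone member of its cluster, by -1.16 ± 0.45, and Hist1h4d by -1.21 ± 0.49. All of these genes encode H4, and each was lowest on EnhDel replicate 2. Hist1h4h stood apart, at 146 and 148 in controls against 196 and 230. It was higher by 0.53 ± 0.16 (unadjusted p = 0.028, limma adjusted p = 0.389).

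**Figure D2:**
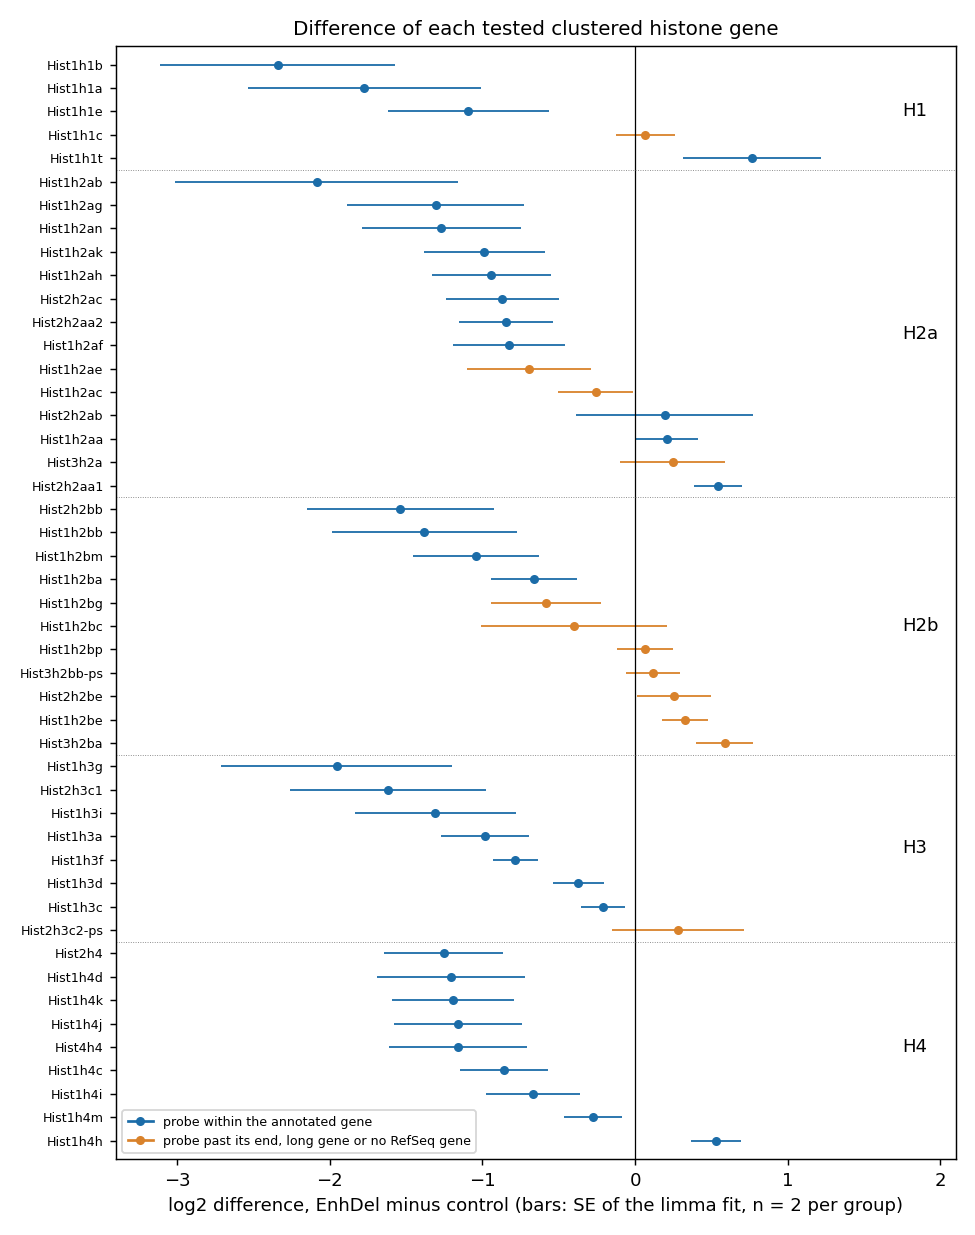
Log2 difference (EnhDel minus control) of each of the 47 tested histone genes, ordered within its type, with the SE of the limma fit as bars (n = 2 per group) and the same colours as in the plot by array. The points run from -2.34 for Hist1h1b to 0.77 for Hist1h1t, and 34 lie below 0.

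Where a probe lies in its gene went along with the difference. The array files give the position of each probe in its transcript, and RefSeq (GRCm38.p6) gives the length of the gene. This grouping was made after the values were seen, so it is a description with no test. In 35 tested genes of up to 1000 bases the probe lay within the annotated gene. Of these 30 were lower, each without overlap, 17 were at least 2-fold lower, and the median was -0.99 (EnhDel replicate 1 at -0.49, EnhDel replicate 2 at -1.54). Over all genes, 15.5% were lower without overlap and 2.98% at least 2-fold lower. In the other 12 the probe lay past the annotated end (7 genes), the annotated gene was longer than 1000 bases (4 genes) or no RefSeq gene matched (1 gene). Of those 12, 4 were lower, none by 2-fold, the groups overlapped in 8, and the median was 0.09.

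Within types the same order held where both classes were present. The 4 H2B genes read within the gene were all lower, with a median of -1.21, while the 4 long H2B genes had a median of 0.16. Among the H1 genes, the 4 read within the gene had a median of -1.43, and Hist1h1c, read past the end, differed by 0.07. All 3 tested genes of the Hist3 cluster on chromosome 11 were higher, with a median of 0.25. Of these, Hist3h2a and Hist3h2ba were read past the annotated end and Hist3h2bb-ps matched no RefSeq gene. Position did not separate every gene, since Hist1h1t, Hist2h2aa1, Hist1h2aa, Hist2h2ab and Hist1h4h were higher with a probe within the annotated gene. Of these, the Hist2h2aa1 probe lies mostly downstream of the stem-loop. In the other direction, Hist1h2ae (-0.69) and Hist1h2bg (-0.58) were lower without overlap with a probe past the annotated end. The 3 H2A genes read past the end had a median of -0.26 with 2 lower, against -0.87 for the 11 read within the gene.

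Among genes with more than 1 tested probe, only Hist1h4i had a probe past the annotated end, so it alone compares both positions. The probe of Hist1h4i that starts at base 23 of the transcript read 1196 and 1212 in controls against 999 and 572, a difference of -0.67 ± 0.31. Its other probe starts at base 483, beyond the annotated length of 403 bases, and read 671 and 570 against 751 and 698, a difference of 0.23. These probes of a single gene thus differed in opposite directions. Both probes within Hist1h2ak (-0.99 and -1.53), Hist1h4k (-1.19 and -0.997) and Hist2h4 (-1.25 and -0.65) were lower. Most mature clustered histone mRNAs end at the stem-loop, and which RNA a probe beyond the annotated end reads was not tested.

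**Figure D3:**
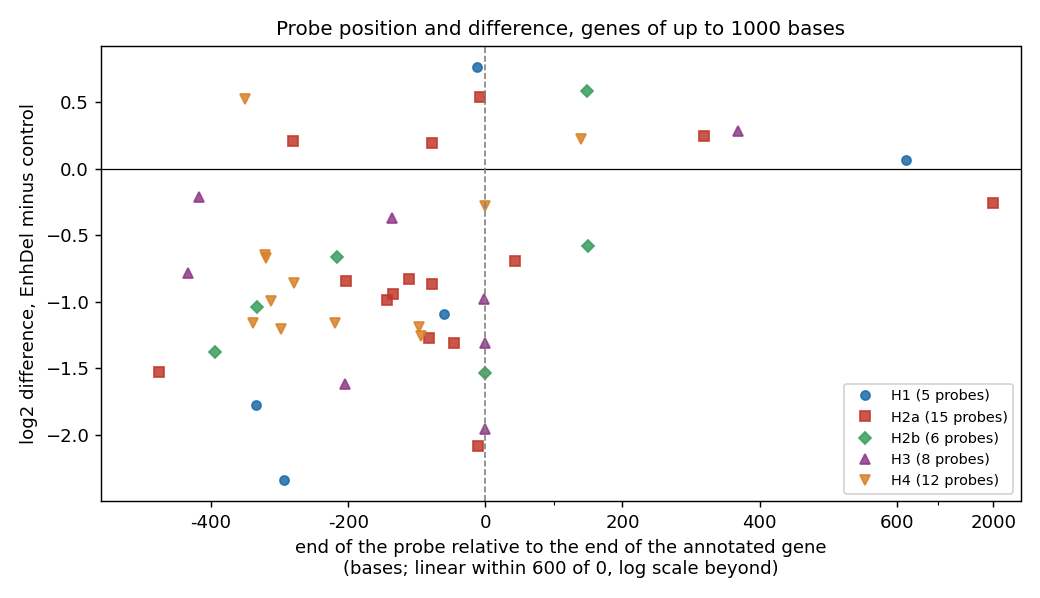
Log2 difference (EnhDel minus control) of 46 histone probes against the distance from the annotated end of the gene to the end of the probe in bases (linear within 600 bases of 0, log scale beyond); a point is a probe well above background on all arrays, its shape and colour the histone type. Most points left of the dashed line, which marks the annotated end, lie below 0, and the points right of it lie between -0.69 and 0.59.

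The clusters did not stand apart beyond that. The Hist1 cluster on chromosome 13 (34 tested genes) had a median of -0.84, and the Hist2 cluster on chromosome 3 (9 genes) had the same median. On chromosome 13, genes from 21814057 to 21929273 (mm9, 9 tested) had a median of -1.16, and those from 23622937 to 23855947 (21 tested) had -0.78.

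Promoters were searched for 4 short motifs on both strands in RefSeq's 300-base windows (250 bases before to 50 after the start, GRCm38.p6), which were present for 43 of the 49 genes. For contrast, 3 promoters are printed over the 150 bases before the start, in the gene's direction, with motifs in capitals. Hist1h1b was the gene furthest apart, Hist1h1c an H1 gene near 0, and Hist2h2bb an H2B gene with an octamer. They lie at chr13:21780626-21780775 (minus strand), chr13:23738657-23738806 (plus strand) and chr3:96269550-96269699 (plus strand).
Hist1h1b: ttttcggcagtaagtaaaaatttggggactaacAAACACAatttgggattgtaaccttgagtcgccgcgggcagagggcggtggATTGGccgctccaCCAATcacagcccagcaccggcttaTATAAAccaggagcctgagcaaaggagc
Hist1h1c: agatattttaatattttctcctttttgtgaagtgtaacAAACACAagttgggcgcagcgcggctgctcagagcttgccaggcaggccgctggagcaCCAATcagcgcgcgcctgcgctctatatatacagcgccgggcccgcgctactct
Hist2h2bb: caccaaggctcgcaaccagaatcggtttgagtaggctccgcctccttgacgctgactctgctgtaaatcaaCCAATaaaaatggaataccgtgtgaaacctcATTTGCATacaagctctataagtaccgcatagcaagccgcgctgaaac
AAACACA, known as the H1 box, was found in 5 of 6 H1 promoters and in 20.9% of the 43, against 8.22% of all 27025 genes with such a window. It stands in both H1 promoters shown, although Hist1h1b differed by -2.34 and Hist1h1c by 0.07. ATTTGCAT, the octamer bound by OCT1 in H2B promoters, was found in 6 of 9 H2B and 7 of 14 H2A promoters and in 0 of the H1, H3 and H4 promoters, against 1.97% of all genes. CCAAT was found in 86.0% against 41.1% of all genes, but in 2 of 8 H4 promoters. TATAAA was found in 60.5% against 15.7%. H2A and H2B genes lie head to head in many places and share promoters, so their windows may overlap. A match says only that these letters are present.

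The genes listed as replication-independent histone variants were lower too, by less at the median. Whether each of them is independent of replication in these cells was not tested. Of 11 such genes, 10 were measured in both groups. Of these 9 were lower, 8 without overlap (15.5% of all genes), and 0 had an unadjusted p under 0.05 in limma (3.96% of all genes were lower at that p). The median was -0.46 over the 10 and -0.50 over the 11 (-0.29 and -0.78 on EnhDel replicates 1 and 2). The lowest was H2afx, named after its values were seen, at -1.34 ± 0.55 (limma adjusted p = 0.475). H3f3a and H3f3b lay nearer 0, at -0.43 ± 0.24 and -0.24 ± 0.15. Cenpa, the centromeric H3, read 1312 and 2191 in controls against 1139 and 632 (-0.999 ± 0.41, limma adjusted p = 0.470). H2afj differed by -0.76 ± 0.29 (limma adjusted p = 0.461), and its probe shares 45 of 60 bases with that of Hist2h2ac. H1fx, a linker histone and the gene left out of those counts, was not well above background on either EnhDel array. It was 1.69-fold higher in controls (limma adjusted p = 0.347). Its EnhDel values lay above the lowest signal well above background of their arrays, so this is the plain difference and no bound.

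The genes that process histone mRNA showed little shift as a list. Of 16 genes measured in both groups 11 were lower and 5 higher. An unadjusted p under 0.05 was found for 1 of the lower ones, where 3.96% of all genes were lower at that p. The median was -0.05 over the 16 and -0.04 with Npat. Lsm11, a subunit of the U7 particle that cleaves histone pre-mRNA, read 196 and 206 in controls against 141 and 129, a difference of -0.58 ± 0.15 (limma adjusted p = 0.342). Eri1, an exonuclease that acts on the stem-loop, differed by -0.42 ± 0.16. Npat, the coactivator of histone gene transcription, was not well above background on either control array, so it stands outside those counts. It was at least 1.19-fold higher in EnhDel. The limma adjusted p of 0.281 belongs to its difference without the bound, 1.86. Slbp, named after its values were seen because it binds the stem-loop, read 632 and 765 against 537 and 454. It differed by -0.49 ± 0.19 with no overlap (limma adjusted p = 0.458).

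Among 21 histone chaperones and carriers 16 were lower and 5 higher, with a median of -0.21. At an unadjusted p under 0.05 1 was lower, a share near the 3.96% of all genes. Chaf1a, a subunit of the CAF-1 complex that deposits H3 and H4 on new DNA, read 893 and 1085 in controls against 517 and 332. It differed by -1.25 ± 0.28 (limma adjusted p = 0.296). Rbbp4, another CAF-1 subunit, differed by -0.40 ± 0.17 and Asf1b, an H3-H4 chaperone of dividing cells, by -1.44 ± 0.64.

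Genes of S phase and of mitosis were lower along with the histone genes. Of 30 S phase genes measured in both groups 29 were lower, 27 without overlap and 14 at an unadjusted p under 0.05, and their median was -0.93. Among all genes, 15.5% were lower without overlap and 3.96% at that p. Over all 31 the median was -0.98, with EnhDel replicate 1 at -0.52 and EnhDel replicate 2 at -1.33, or -0.89 with Ccne2, which was not well above background in EnhDel, at its bound. Gins1 and Gins2, subunits of the replicative helicase, differed by -1.58 ± 0.43 and -1.07 ± 0.24 (limma adjusted p = 0.343 and 0.300). Ccne2, a cyclin of S phase entry, was at least 1.20-fold higher in controls. The limma adjusted p of 0.195 belongs to its difference without the bound, -1.51.

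All 23 mitosis genes were lower, 22 without overlap and 3 at an unadjusted p under 0.05, where 15.5% and 3.96% of all genes were. Their median of -1.56 went from -0.66 on EnhDel replicate 1 to -2.47 on EnhDel replicate 2. Aurkb, a mitotic kinase, read 39.2 and 39.5 in controls against 16.4 and 19 (-1.16 ± 0.16, limma adjusted p = 0.195). Bub1b, a spindle checkpoint protein, differed by -1.30 ± 0.37 and Tpx2, a spindle assembly factor, by -1.44 ± 0.52. The spread between the EnhDel arrays in these lists ran in the direction seen for the histone genes, with EnhDel replicate 2 lower.

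**Figure D4:**
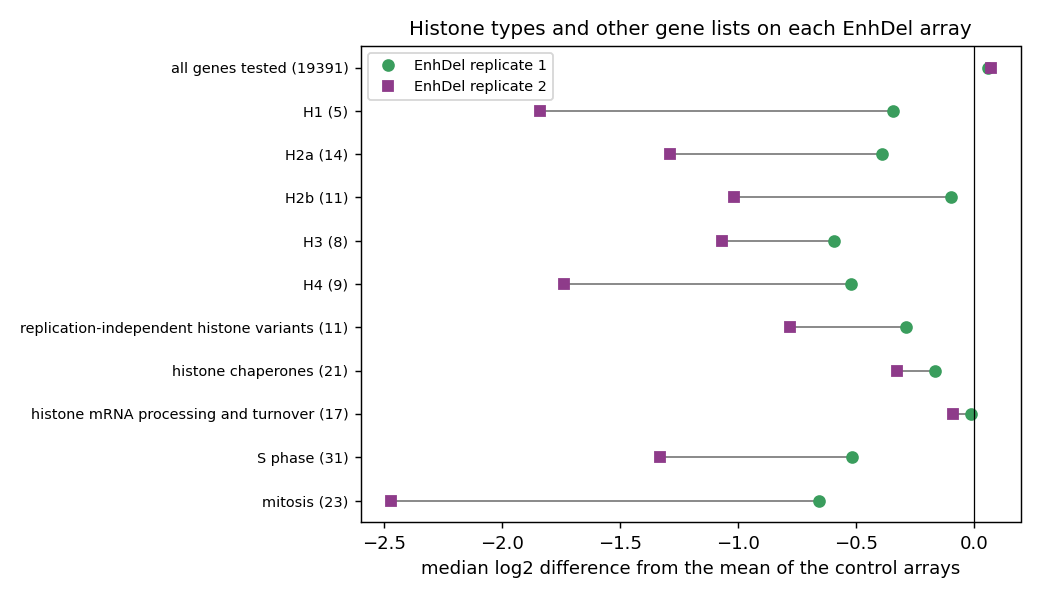
Median log2 difference from the control mean on EnhDel replicate 1 (circles) and EnhDel replicate 2 (squares) for each histone type, for lists of related genes and for all 19391 genes tested, with the number of tested genes in parentheses. EnhDel replicate 2 lies further below 0 in every histone type, from -1.02 for H2B to -1.84 for H1, while all genes together lie at 0.06 and 0.07.

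Markers of other cell types also differed between the groups. Summed intensity of pro-B and pre-B markers was 33974 and 42724 in controls against 20558 and 15301, with 7 of 8 well above background on both arrays of each group. Vpreb1 made up most of that fall, at 14540 and 21452 against 5087 and 887, while Cd79b differed by -0.15. T cell markers (8 of 8) summed to 18734 and 17490 against 26855 and 34483. Cd4 was the largest part of that sum, at 9075 and 8021 against 15584 and 28013. Cd3d, Cd3e and Cd3g were also higher on both EnhDel arrays, while Cd5, Cd8a, Lck and Thy1 overlapped between the groups. Monocyte markers (6 of 6) summed to 14540 and 12663 against 5193 and 5025. By their brightest probes Csf1r, Cx3cr1, Lyz1 and Ms4a6c were lower without overlap, while Ccr2 and Cd14 overlapped between the groups. Neutrophil markers summed to 15644 and 18312 against 1094 and 8406, with Ltf and Ngp at background on all arrays. Mpo made up most of that sum, at 13932 and 16560 against 577 and 7205. Elane, Prtn3, S100a8 and S100a9 were also lower on both EnhDel arrays. Camp went the other way by its brightest probe, at 54.6 and 52.9 against 64.6 and 72.3, and its other probe overlapped. Erythroid markers summed to 7925 and 9388 against 7760 and 7653, with 3 of 9 well above background on both control arrays, 7 of 9 on both EnhDel arrays and Rhag on none. Tfrc, the transferrin receptor of dividing cells in general, made up most of that sum. Without it the list summed to 263 and 696 in controls against 1172 and 1441. On both EnhDel arrays 7 of the 8 genes read higher than on either control, as did 28.6% of all genes. Gata1, an erythroid transcription factor, read 27 and 37.7 against 215 and 89, and Klf1, another, was not well above background in controls and read 44.4 and 17.6 in EnhDel. In NK cell, plasmacytoid dendritic and plasma cell markers the summed intensities of the groups overlapped. The plasmacytoid dendritic sum was the largest of all lists, at 755330 and 702690 against 759080 and 749440. Klrd1 made up most of the NK cell sum. Gzmb was not well above background in controls (4.6 and 5.3) and read 73.8 and 236.7 in EnhDel, while the other tested NK genes overlapped. What share of the sorted cells were of these types was not tested. The part of these cell types in the histone difference was not tested. Nor was that of a possible exchange or mixing behind the Xist and Y-linked signals of control replicate 1 and EnhDel replicate 2.

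The authors' own processed values were set beside these gene by gene. In the authors' deposited table the sign matched in 45 of the 47 genes and was opposite in Hist1h2bp and Hist3h2bb-ps, both near 0. Its differences were smaller in size for 34 genes, with medians of -1.10 for H1, -0.83 for H2A, -0.35 for H2B, -0.80 for H3 and -0.85 for H4. How the probes of a gene were combined in that table is not given. For the 5 members with more than 1 probe, Hist4h4 and Hist2h4 among them, it may not measure what the brightest probe does.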

How the data were processed

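Per the file headers, the authors' scanner files were written by Agilent Feature Extraction 10.7.3.1 and hold 1-colour intensity values with local background and flags. The authors also deposited a log2 table with 31597 rows, used as an alternative, whose normalization is not given in the sources used here.

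Control and flagged spots (126 to 162 per array) were left out. From the log2 processed signal the 75th percentile of its array was subtracted and the spots of a probe averaged, and normalized intensity is that value scaled back by a common factor. The brightest probe stood for a gene, which was tested if a group had it well above background on both arrays (24278 probes, 19391 genes). Other genes were named by accession through RefSeq (26581 of 39429 probes). Groups were compared with limma 3.58.1 in R 4.3.3, with Benjamini-Hochberg adjustment over all tested genes. All arrays lay on 1 slide in 1 scan.

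The histone genes and the lists beside them were chosen with earlier results of these data known. Named were up to 8 members per type and up to 3 per list by smallest p, and members with probes of opposite sign. Where a probe was at background throughout a group, a bound was computed as the difference of group means. Dim values below the array's lowest signal well above background (11.5 to 14.7) were raised to it. Precision is limited by the number of arrays. The fit was tested on simulated data. Alternatives were other background corrections, normalizations, probe filters and variance models, the replicate number as a block, and each array left out.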

Additional observations from a re-analysis of the deposited data

How the results depend on the processing

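No clustered histone gene passed limma's adjusted threshold under any alternative, except that 30 did without EnhDel replicate 1, where 2941 of all genes passed and the lone EnhDel array is assumed to vary like the controls. With each array left out in turn, that count was 0 to 30. The median difference was -0.83 and ran from -1.24 to -0.36 with an array left out, both ends coming from the EnhDel arrays (-0.36 without EnhDel replicate 2). It was -0.66 with normexp, -0.70 in the authors' deposited values and -1.03 with median scaling, which moved the median of all genes from 0.07 to -0.13.

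The number of genes at least 2-fold lower with an unadjusted p under 0.05 was 4. It was 16 with normexp, 13 with repaired normexp (6 spots with extreme local background replaced), 23 with median scaling, 12 with an intensity trend and robust variance, 0 in the authors' deposited values and 1 to 29 with an array left out (1 without control replicate 2, 29 without EnhDel replicate 1 and 1 without EnhDel replicate 2). The number higher was 0, with 1 under normexp and 0 to 1 with an array left out.

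Among the lists, the processing genes' median of -0.04 was -0.12 with normexp, -0.25 with median scaling and -0.11 with every probe on its own. The chaperones' median of -0.21 was -0.41 with median scaling and -0.33 to -0.13 with an array left out (-0.17 without EnhDel replicate 2). The variants' median ran from -0.78 to -0.29 and the S phase median from -1.33 to -0.52 with an array left out.

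With normexp the H2B median turned to 0.30 (from -0.40) and the H3 median was -0.38 (from -0.88). Some named genes changed sign. Hist1h1c was at -0.022 with normexp, -0.14 with median scaling and -0.080 to 0.22 with an array left out. Hist1h2bb (0.30) and Hist1h2bg (0.62) turned with normexp, Hist2h3c2-ps (-0.16 to 0.72) with control replicate 2 or EnhDel replicate 1 left out, and Hist2h2be (-0.036 to 0.54) with EnhDel replicate 2 left out. The causes were not tested.

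The shared replicate numbers did not pair the samples (correlation of deviations -0.02). With the replicate block the median was -0.83, 3 genes were at least 2-fold lower with an unadjusted p under 0.05, and 0 passed the adjusted threshold. Dim probes limit what can be measured below the lowest signal well above background.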
